A study of Mus musculus with 3 samples.

Results

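Ly6d-high epithelial cells are the 655 cells that devoted the largest share of their transcripts to Ly6d among 13100 epithelial cells of a mouse esophageal culture called PC. They make up 5% of those epithelial cells and 4.39% of the 14925 cells that passed quality limits, out of 18116 barcodes in the matrix. A cell passed with at least 500 genes, at least 1000 unique molecular identifiers (UMIs, each the tag of 1 captured transcript) and at most 20% mitochondrial UMIs. It counted as epithelial with at most 1 UMI in all from the mesenchymal genes Vim, Col5a1, Grem1, Aebp1 and Ccn5, a limit that removed 1825 cells. The Ly6d-high cells were then chosen by the measured Ly6d share of UMIs, as the top 5%, with a minimum of 3 Ly6d UMIs that every one of them met. They were set against 7410 epithelial cells with 0 Ly6d UMIs whose totals lay in the same range, from 1023 to 10792 UMIs.

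The culture came from esophageal organoids of mice with floxed Trp53 alleles, recombined with an adenovirus carrying Cre and EGFP, after which Cdkn2a was knocked out with CRISPR/Cas9. All cells, both sets included, therefore share the Trp53 and Cdkn2a alterations, constitutive Cas9, a barcode library delivered with Lipofectamine 3000, growth over 3 passages, and a sort for live RFP-positive cells. The submitters label the tissue as esophageal cancer. Neither the age of the animals nor the number of clones in the culture is known from these labels. There was 1 culture and 1 matrix, so no test between groups exists. Every interval below is a 95% interval that covers counting error only, and cells are not replicates.

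Ly6d encodes a small glycosylphosphatidylinositol-anchored surface protein of the Ly6/uPAR family, whose members share a disulphide-bonded three-finger fold. In stratified squamous epithelium it is known as a keratinocyte surface antigen, and in bone marrow it marks lymphoid progenitors committed to the B lineage. In the esophagus, basal cells that carry keratins 5 and 14 divide on a laminin-rich basement membrane, then stop dividing and move upward while they switch to differentiation keratins such as keratin 13. The gene lies on chromosome 15 at chr15:74762056-74763620 of mm10, on the minus strand, with 3 exons and a coding sequence that spans all of them (GENCODE M21).

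Ly6d was abundant in the chosen cells, and because it chose them its values are given as a description. The 655 cells held between 7 and 136 Ly6d UMIs, with a median of 24, and the Ly6d share of their UMIs ran from 0.60024% through a median of 0.867% to 3.81%. Their summed level was 9777 CPM (UMIs per 1000000 UMIs), against 1104 CPM over all epithelial cells, and they held 42.4% of all epithelial Ly6d UMIs. The limit fell in a continuous range. The last cell inside had a share of 0.60024% and the first outside 0.599401%, with 100 chosen cells within 10% above the limit and 110 other cells within 10% below it. Another 4955 epithelial cells had at least 1 Ly6d UMI without reaching the limit, at a median of 3 Ly6d UMIs.

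Free RNA in the droplets can give a cell a stray UMI, so the share of cells with a Ly6d UMI was also measured after each cell was thinned at random to 1500 UMIs. At this depth 37.3% of epithelial cells (95% exact binomial interval 36.4% to 38.2%) had a Ly6d UMI, with 1628 shallower cells left out. The 1221 cells with 5 or more UMIs of the mesenchymal genes were taken as a gauge of free RNA. Their share was 2.22% (1.47% to 3.21%), with 4 cells left out. Unthinned, a cell of that set held up to 27 Ly6d UMIs, and whether all its Ly6d UMIs came from free RNA was not tested. Before thinning the shares were 42.8% and 4.34%, at median depths of 2875 and 3492 UMIs. The epithelial share was above the mesenchymal share at equal depth, beyond counting error.

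**Figure D1:**
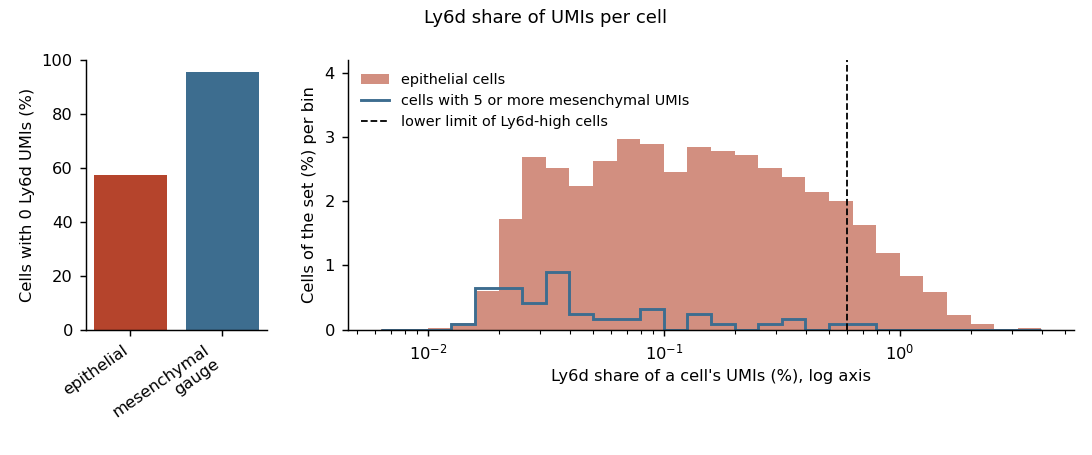
Left, percent of cells with 0 Ly6d UMIs among epithelial cells and among the 1221 cells with 5 or more mesenchymal UMIs. Right, percent of each set per bin of Ly6d share of UMIs (log axis), for cells with a Ly6d UMI. The dashed line marks the 0.60024% at which a cell became Ly6d-high, and it falls within a continuous range of epithelial cells.

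Depth was alike in both sets, with medians of 2735 UMIs and 1364 genes in Ly6d-high cells and 2689 UMIs and 1407 genes in cells without Ly6d. The median mitochondrial share was 3.52% and 2.68%. Doublet scores above the 90th percentile of all cells were found in 5.80% of Ly6d-high cells and 7.95% of the comparison cells. Without the 10% of cells with the highest scores, 501 genes were higher and 901 lower by the rule given below, against 482 and 856 with them. The epithelial label fits the markers measured. Epcam stood at 1246 CPM in Ly6d-high cells and 1291 CPM in cells without Ly6d, Cdh1 at 327 and 313 CPM, and Trp63, the master regulator of stratified epithelia, at 139 and 166 CPM. Of 14 immune markers, 11 had 0 UMIs in the 655 cells, among them Ptprc, Cd79a, Cd79b and Ms4a1, and the list summed to 3.25 CPM against 3.04 CPM. Of 8 endothelial markers 5 had 0 UMIs, and the list summed to 4.33 CPM against 4.78 CPM. Trp53 transcript was at 46.5 CPM in Ly6d-high cells and 48.8 CPM in the others, and Cdkn2a at 503 and 537 CPM. Both ratios lay within 1.5-fold.

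The lines below show the sequence just upstream of the start sites of 4 genes with large ratios. They were chosen after the values were seen, as a differentiation keratin, an antimicrobial calcium-binding protein, a secreted iron-binding protein and a retinaldehyde dehydrogenase. Each line gives the 250 bases before a RefSeq start (GRCm38.p6, the same assembly as mm10), written 5′ to 3′ on the strand of the gene. Capitals mark matches to the AP-1 motif TGANTCA, the Grainyhead-like motif AACCNGTT and the C/EBP motif TTGCNNAA, on either strand.
Krt13 (chr11:100121567-100121816, minus strand): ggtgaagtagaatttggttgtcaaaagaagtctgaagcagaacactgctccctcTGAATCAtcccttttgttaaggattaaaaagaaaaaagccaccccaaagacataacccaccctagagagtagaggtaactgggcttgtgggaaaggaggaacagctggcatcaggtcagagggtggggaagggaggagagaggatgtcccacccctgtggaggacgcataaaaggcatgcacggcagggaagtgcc
S100a9 (chr3:90695722-90695971, minus strand): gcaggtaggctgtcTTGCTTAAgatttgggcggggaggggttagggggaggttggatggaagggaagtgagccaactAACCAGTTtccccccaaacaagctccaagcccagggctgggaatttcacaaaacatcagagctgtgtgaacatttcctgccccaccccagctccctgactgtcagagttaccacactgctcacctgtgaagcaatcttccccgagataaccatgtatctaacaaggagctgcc
Ltf (chr9:111019042-111019291, plus strand): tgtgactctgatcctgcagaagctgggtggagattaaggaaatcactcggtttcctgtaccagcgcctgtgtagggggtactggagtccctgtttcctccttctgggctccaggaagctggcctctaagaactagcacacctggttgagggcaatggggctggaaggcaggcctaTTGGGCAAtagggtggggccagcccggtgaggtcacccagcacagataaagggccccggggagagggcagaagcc
Aldh1a1 (chr19:20492333-20492582, plus strand): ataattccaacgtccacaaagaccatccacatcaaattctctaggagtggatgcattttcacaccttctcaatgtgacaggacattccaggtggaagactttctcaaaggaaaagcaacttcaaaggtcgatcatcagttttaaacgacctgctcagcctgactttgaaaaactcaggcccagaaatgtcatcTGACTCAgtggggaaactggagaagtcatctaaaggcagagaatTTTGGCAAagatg
The Krt13 stretch holds an AP-1 match, the S100a9 stretch a C/EBP and a Grainyhead-like match, the Ltf stretch a C/EBP match, and the Aldh1a1 stretch an AP-1 and a C/EBP match. Krt13 and Aldh1a1 each have 2 start entries, of which the most upstream is shown, a choice also made with the values known. The window of the other Krt13 entry holds 2 AP-1 matches, and that of the other Aldh1a1 entry holds no match to these motifs. A match describes the letters and is not a binding site.

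Levels of all other genes are CPM over all UMIs except those of Ly6d, summed within each set. A gene was examined when it reached 20 CPM in either set, and was counted as higher or lower where the levels differed by at least 1.5-fold, reached 20 CPM in the higher set and had 95% Poisson intervals that did not overlap. Of 6681 genes examined, 482 (7.21%) were higher in Ly6d-high cells and 856 (12.8%) were lower. At least 2-fold separated 239 of the higher and 324 of the lower genes, and at least 5-fold separated 62 and 37. The median gene had a log2 ratio of -0.11, so the ratios below sit on a slight downward shift. Scaling both sets to the same median gene gave 650 higher and 633 lower, so that 50.7% instead of 36.0% of the counted genes were higher. A gene that reached 20 CPM in 1 set alone could hardly go the other way, which holds for 184 of the higher and 356 of the lower genes. These counts describe the same cells that Ly6d chose, and no test was made on them. The shares of 7.21% and 12.8% are the background for every list count below, and short lists near them say little.

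The largest ratios included those of keratins, antimicrobial proteins and Ly6 family members. Krt6b, a keratin of suprabasal and wounded epithelium, stood at 38.4 CPM in Ly6d-high cells against 0.145 CPM, which was 3 UMIs, a ratio of 265 (87.1 to 1317). S100a9, the calprotectin subunit that chelates metal ions, was at 48.2 against 0.338 CPM, although 27.0% of its UMIs came from 1 cell. Krt13, the main differentiation keratin of esophageal epithelium, was at 104 against 1.55 CPM, a ratio of 67.6 (46.3 to 102.3). Cyp2f2, a cytochrome P450 enzyme, was at 98.5 CPM, a ratio of 65.8 (44.8 to 99.7), and Ltf, the iron-binding antimicrobial protein lactoferrin, at 614 CPM against 12.9 CPM. Psca, a Ly6 family surface antigen, was at 117 against 2.46 CPM, and Slurp1, a secreted member of that family, at 29.2 against 0.869 CPM. Adam28, a membrane metalloprotease, was at 189 against 5.50 CPM, and Il33, an alarmin stored in epithelial nuclei, at 414 against 16.9 CPM.

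The others among the 15 largest ratios were Cybb, Oit1, Tmprss4, Ifit1bl1, Aldh1a1 and Arg1, with ratios between 20.7 and 53.8. Cybb, the NADPH oxidase subunit, S100a9, Ltf and arginase 1 are also well known from myeloid cells. Of the immune list, Ptprc, Csf1r, Adgre1, Lyz2 and Tyrobp had 0 UMIs in all 655 cells, which in each case allows up to 0.458% of cells with a UMI. Itgam, Fcer1g and Cd74 of that list were not at 0, and the list summed to 3.25 CPM against 3.04 CPM. Of the 31 cells with a Cybb UMI, 21 also had an Ltf UMI, which 258 of all 655 cells had. The source of these transcripts was not tested.

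**Figure D2:**
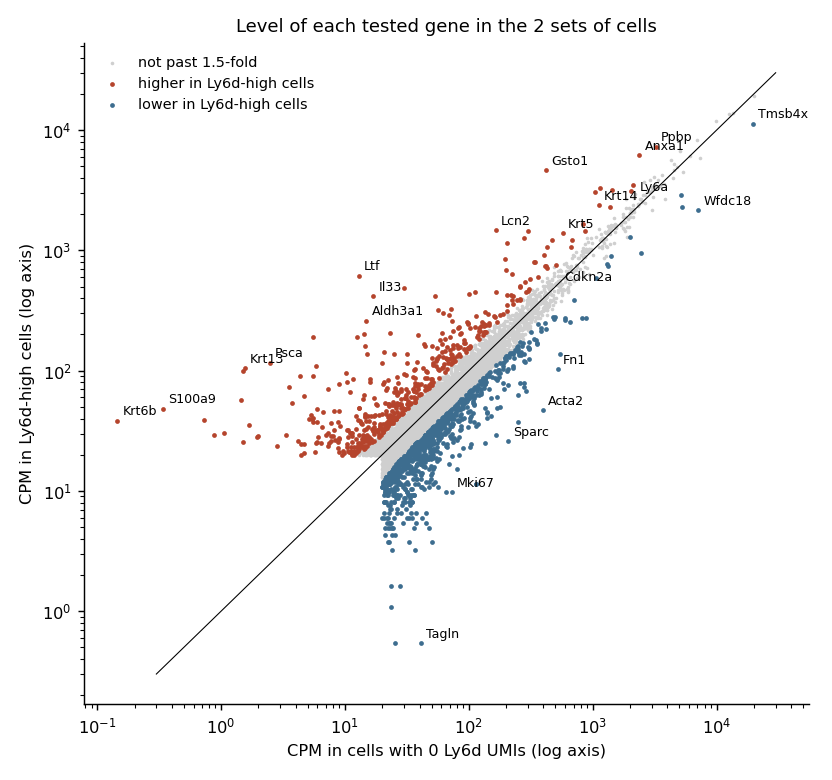
Level of each of the 6681 genes in cells with 0 Ly6d UMIs (x axis) and in Ly6d-high cells (y axis), in CPM on log axes; the line marks equal levels. Points counted as higher (482) or lower (856) are coloured, with named examples such as Krt6b, Ltf and Gsto1 above the line and Tagln, Mki67 and Wfdc18 below it.

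These genes differed in how many cells carried them. Gsto1, a glutathione transferase of the omega class, was nearly universal, with a UMI in 610 of the 655 cells and a level of 4664 CPM against 416 CPM, a ratio of 11.2 (10.9 to 11.6). Il33 was found in 280 cells and Ltf in 258. Krt13 was found in only 60 of the cells, Krt6b in 28, S100a9 in 25 and Slurp1 in 22, and 15 of the 28 cells with Krt6b also had Krt13. Thinned to 1500 UMIs, which left out 65 Ly6d-high and 1174 comparison cells, Ltf was detected in 32.7% of Ly6d-high cells, 1.22% of cells without Ly6d and 0.0822% of the mesenchymal-gene cells. Before thinning the first shares were 39.4% and 1.79%. Gsto1 was detected in 87.8%, 40.0% and 15.2% after thinning. Krt13 was detected in 6.78%, 0.128% and 0.0822%. Gsto1 was thus found across the set, and Krt13 and Krt6b in a minority of it.

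Many differentiation genes were higher. Of 44 listed genes of differentiated squamous epithelium, 20 reached 20 CPM, of which 14 were higher, 1 was lower and 5 were not counted, with a median log2 ratio of 1.56. Of the 14, 7 reached 20 CPM in Ly6d-high cells alone and so could enter only by being higher. Besides Krt6b and Krt13, Dmkn, the secreted protein dermokine, was at 89.8 against 5.55 CPM. Sbsn (suprabasin) was at 47.6 against 5.99 CPM and Ecm1, a secreted glycoprotein of skin, at 1160 against 203 CPM. Spink5, an inhibitor of the proteases that shed the outer cell layers, was at 692 against 198 CPM. The wound and hyperproliferation keratins Krt6a and Krt16 were at 1271 against 281 CPM and 138 against 15.1 CPM. The cornified envelope precursor Sprr1a was the gene that was lower, at 138 against 226 CPM, whereas Sprr2d was at 201 against 14.3 CPM. The remaining 24 genes lay under 20 CPM in both sets, and 8 of the list, Krt1, Krt78, Cnfn, Tgm3, Rptn, Serpinb3a, Gsdmc and Cdsn, had 0 UMIs in Ly6d-high cells. Reads of the Sprr2, Krt6 and Prl2c families can be shared between near-identical copies, so the split between their members is uncertain.

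Of 22 examined squamous transcription factors 10 were higher, 2 of them at 20 CPM in Ly6d-high cells alone, and 1 was lower. With either cluster setting 7 were higher. Zfp750, which drives terminal differentiation, was at 54.1 against 3.77 CPM, a ratio of 14.4 (10.6 to 19.6), and the homeodomain protein Hopx at 77.9 against 8.93 CPM. Elf3 was at 94.1 against 29.7 CPM, Id2 at 214 against 74.6 CPM and Klf4 at 170 against 91.2 CPM. Klf5, Ehf, Pax9, Foxq1 and Id1 were also higher, and Id3 was lower. Zfp750 was not counted outside clusters 4 and 6, and Id2 was not counted with cluster weighting. Of 12 basal genes, the keratins and the integrins went in opposite directions. Krt5 was at 1391 against 571 CPM, a ratio of 2.44 (2.33 to 2.54), Krt14 at 2369 against 1120 CPM and Krt15 at 20.6 against 4.68 CPM. Krt15 reached 20 CPM in Ly6d-high cells alone. The integrin chains Itgb1, Itga3 and Itga6 and the hemidesmosomal collagen Col17a1 were lower, with Itgb1 at 276 against 594 CPM. With comparison cells weighted to the clusters described below, or outside clusters 4 and 6, 2 of the basal genes were lower. Col17a1 was higher within cluster 4, at 139 against 71.7 CPM, and lower within cluster 6, at 185 against 530 CPM. Among 19 desmosome and junction genes, 4 (Dsc2, Cldn7, Jup and Perp) were higher and 1 (Pkp2) was lower. Over all examined genes 7.21% were higher and 12.8% lower. With cluster weighting 2 were higher and outside clusters 4 and 6 none, and Dsc2, Cldn7 and Jup were not counted under either.

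Several genes of attachment to the basement membrane were lower. None of 13 genes of the hemidesmosome and laminin-332 list was higher and 8 were lower, with a median log2 ratio of -0.71. With cluster weighting 4 were lower, and outside clusters 4 and 6 it was 3. Fn1 (fibronectin) was at 102 against 520 CPM, 5.09-fold lower (4.41 to 5.91). Tnc (tenascin C) was at 137 against 542 CPM. Col7a1, the anchoring fibril collagen, was at 27.6 against 72.1 CPM.

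Contractile and mesenchymal transcripts were lower too, where 12.8% of all examined genes were lower. Of 5 smooth-muscle contractile genes 4 were lower (2 with cluster weighting, 3 outside clusters 4 and 6), with Acta2, smooth-muscle actin, at 47.1 against 394 CPM (8.38-fold lower, 6.79 to 10.5). Tagln was at 0.541 CPM, a single UMI, against 40.9 CPM. Like Postn below, it reached 20 CPM in the comparison set alone. Of 21 mesenchymal genes 3 reached 20 CPM, and all 3 were lower: Sparc at 26.0 against 208 CPM, Postn at 9.74 against 66.0 CPM, and Fn1. Of the other 18, 5 were limited by the choice of cells. Of the 21, 11 had 0 UMIs in Ly6d-high cells, among them Vim, Col5a1, Grem1 and Aebp1, which that choice limited. Summed over the list, with the 5 genes limited by the choice of cells included, the level was 152 against 842 CPM. The abundance of these transcripts in the mesenchymal-gene cells was high, with Sparc detected in 86.9% of them after thinning, in 21.8% of cells without Ly6d and in 2.88% of Ly6d-high cells. Actin and thymosin genes were lower in 5 of 13 cases, led in level by Tmsb4x, a thymosin that binds actin monomers, at 11331 against 19636 CPM, which is 1.73-fold lower (1.71 to 1.76). With cluster weighting, and outside clusters 4 and 6, 1 gene of this list was lower, and Tmsb4x, Actb and Msn were not counted under either.

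Transcripts of dividing cells were scarce. Of 26 listed genes of G2 and mitosis 21 were examined and were lower, and of 26 S phase genes 13 were examined and 12 were lower, with median log2 ratios of -1.75 and -1.17. Mki67, a proliferation marker, was at 9.74 against 72.5 CPM, 7.44-fold lower (4.69 to 12.6), and Top2a, the topoisomerase of replicating cells, at 29.2 against 165 CPM. Mki67 UMIs occurred in 14 of the 655 cells and Top2a UMIs in 26. Cdkn1a, the cell cycle inhibitor p21, was at 300 against 61.5 CPM, a ratio of 4.89 (4.41 to 5.40), and Phlda3 was the other higher gene among 12 p53 targets and cell cycle brakes, with Sesn1 lower. Both counts rested on which cells were compared. With comparison cells weighted to the clusters of the Ly6d-high cells 3 of the G2 and mitosis genes and 5 of the S phase genes were lower, and outside clusters 4 and 6 the numbers were 6 and 5. Of the lower genes, 15 of the 21 and 8 of the 12 reached 20 CPM in the comparison set alone, so they could enter only by being lower.

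**Figure D3:**
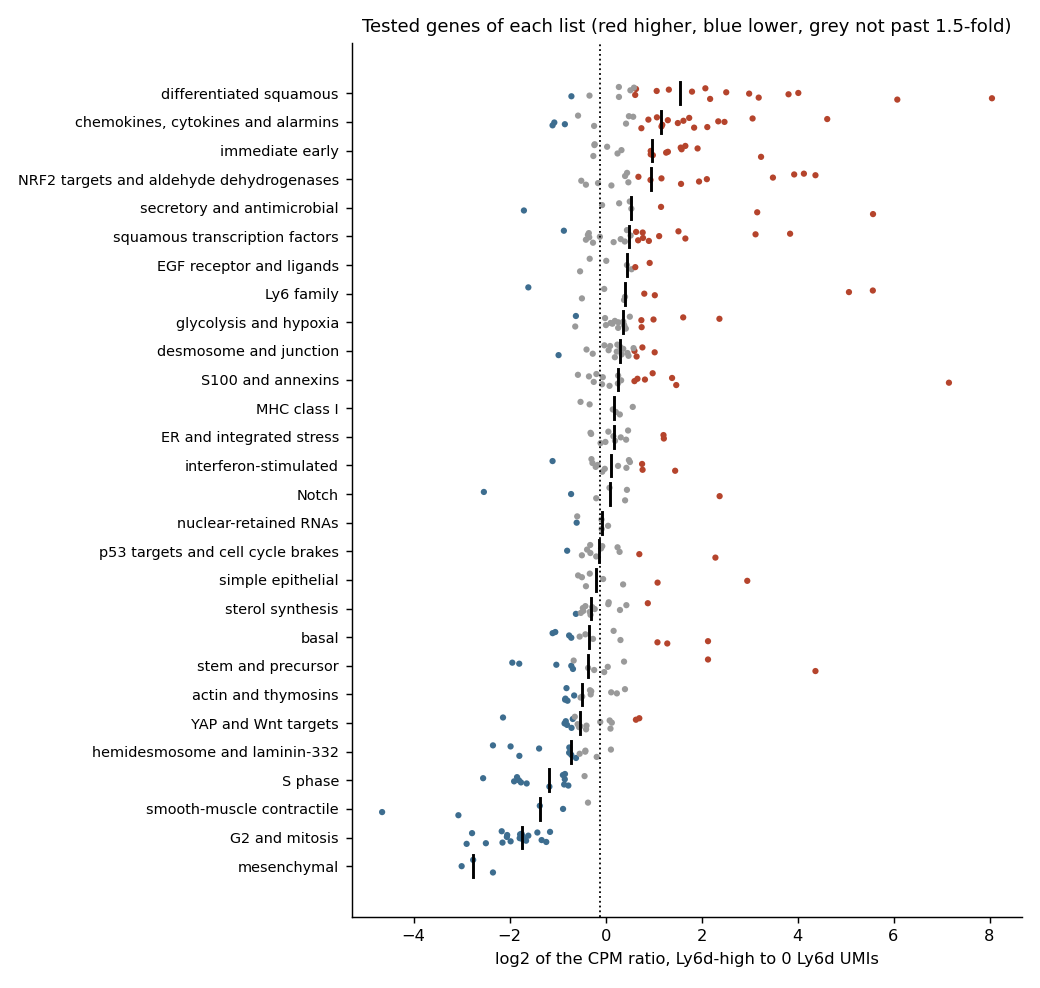
log2 ratio of CPM, Ly6d-high to 0 Ly6d UMIs, for every examined gene of each list (points), with the list median (black bar) and the median of all 6681 genes (dotted line, -0.11). The differentiated squamous list has the highest median, 1.56, and the mesenchymal list the lowest, -2.76, over 3 genes.

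Genes that signal to immune cells were more often higher than lower. Of 23 examined chemokines, cytokines and alarmins 15 were higher and 3 (Cxcl10, Csf1 and Ccl2) were lower, with a median log2 ratio of 1.16. Of the 15, 4 reached 20 CPM in Ly6d-high cells alone and so could enter only by being higher. Cxcl10 reached it in the comparison set alone. The IL-1 family members Il33 and Il1f9 and the colony-stimulating factors Csf2 and Csf3 had the largest ratios. Csf2 was at 137 against 24.7 CPM and Csf3 at 80.6 against 15.8 CPM. The neutrophil chemokines Ppbp, at 7291 against 3215 CPM, and Cxcl5, at 3190 against 1423 CPM, were the most abundant. With comparison cells weighted to the clusters 4 genes of this list were higher and 4 lower, outside clusters 4 and 6 it was 8 and 3, and under the weighting the Cxcl5 ratio became 0.970. The weighted ratios of Csf2 and Csf3 were 1.28 and 1.21, and neither gene was counted there. Ppbp and Cxcl5 were not counted under either cluster setting. Secreted defence proteins diverged, with 3 of 8 examined genes higher, 1 lower and 4 not counted. With cluster weighting 1 was higher and 2 were lower, and outside clusters 4 and 6 it was 4 and 0. Lcn2, the siderophore-binding lipocalin 2, was at 1475 against 165 CPM, and Slpi, a protease inhibitor, at 228 against 103 CPM. With cluster weighting the ratios of Lcn2 and Slpi became 0.957 and 0.706. Wfdc18, a small whey acidic protein, was at 2165 against 7043 CPM, 3.25-fold lower (3.15 to 3.36). It was not counted outside clusters 4 and 6. Its level was 1080 against 1122 CPM within cluster 4 and 6326 against 5918 CPM within cluster 2, but 1212 against 6678 CPM within cluster 6 and 6174 against 9647 CPM within cluster 1.

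In the list of NRF2 targets and aldehyde dehydrogenases, 10 of 17 examined genes were higher and none lower, at a median log2 ratio of 0.94. Nfe2l2, which encodes NRF2, was among the 7 not counted, with Keap1, Hmox1, Gclm, Txnrd1, Prdx1 and Aldh2. Of the 10, 4 reached 20 CPM in Ly6d-high cells alone and so could enter only by being higher. Aldh3a1, which oxidises aromatic and lipid aldehydes, was at 261 against 14.9 CPM, a ratio of 17.5 (15.2 to 20.3). The retinaldehyde dehydrogenases Aldh1a1 and Aldh1a3 were at 73.0 against 3.52 CPM and 192 against 12.6 CPM. Gsta4, a glutathione transferase, was at 851 against 197 CPM, and Nqo1, Gclc, Slc7a11, Gstm1 and Gpx2 were also higher. Of 16 immediate early genes 10 were higher and none lower, 3 of the 10 at 20 CPM in Ly6d-high cells alone. Fos was at 95.8 against 10.1 CPM, a ratio of 9.45 (7.69 to 11.6), and Dusp1, a phosphatase that ends MAP kinase signals, at 83.9 against 22.2 CPM. Btg2 was at 160 against 50.6 CPM.

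In the Notch list, 1 of 7 examined genes was higher and 2 were lower. Over all examined genes 7.21% were higher and 12.8% lower, so counts this small say little about the list. Notch3 reached 20 CPM in Ly6d-high cells alone and Jag2 in the comparison set alone. The receptor Notch3 was at 34.1 against 6.57 CPM, a ratio of 5.19 (3.79 to 7.05). The ligand Jag2 was at 6.49 against 37.7 CPM, and Jag1 was at 152 CPM, 1.65-fold lower (1.46 to 1.86). Jag1 was not counted under either cluster setting. Notch1 was at 30.8 against 23.3 CPM and was not counted. Among S100 and annexin genes 7 of 17 were higher, or 4 under either cluster setting, of which Anxa1, a phospholipid-binding protein, was the most abundant at 6190 against 2369 CPM. Krt19 and Krt18 were the higher genes among 8 of the simple epithelial list, with Krt19 at 416 against 53.7 CPM. Krt18 was not counted under either cluster setting. None of 6 examined MHC class I genes was counted in either direction, with B2m at 662 against 833 CPM and H2-K1 at 505 against 411 CPM.

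The rest of the Ly6 family did not move as a block. Of 27 family genes in the list besides Ly6d, 9 reached 20 CPM, of which Psca, Slurp1, Lypd3 and Lypd6b were higher and Cd59a lower. Psca and Slurp1 reached 20 CPM in Ly6d-high cells alone, and Cd59a in the comparison set alone. Outside clusters 4 and 6, 1 gene of the family was higher and none lower. Ly6a, an abundant surface antigen, was at 2830 against 2168 CPM, and Ly6e at 917 against 693 CPM, both under 1.5-fold. Ly6c1 was at 74.1 against 104 CPM and was not counted, and 11 of the family had 0 UMIs in Ly6d-high cells. On chromosome 15, 30 genes in the matrix including Ly6d lie within 500 kb of it. Besides Ly6d, 7 of them were examined and 4 were higher, where 7.21% of all examined genes were higher. All 4 reached 20 CPM in Ly6d-high cells alone, so they could enter only by being higher. Ly6a, Ly6e and Ly6c1, which reached 20 CPM in both sets, were not counted. Psca starts 48.8 kb and Slurp1 35.6 kb from the Ly6d start, on the side of lower coordinates. Arc, at 91.1 kb, was at 24.9 against 5.84 CPM and Them6, at 42.4 kb, at 28.1 against 15.6 CPM. Lynx1, the nearest of these at 10.6 kb, was at 16.2 against 11.9 CPM, under the 20 CPM limit. Them6 and Slurp1 overlap at their 3′ ends on opposite strands, and whether counting used the strand is not given in the sources used here, so their reads may be mixed.

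The levels of these genes were also read in steps of Ly6d share along the whole epithelial range. Cells were placed in 5 bins, 7490 with 0 Ly6d UMIs and then 4 equal groups of the cells with a Ly6d UMI in order of Ly6d share, 1402 or 1403 in each. Ltf was at 12.9, 28.2, 47.2, 76.2 and 372 CPM over the bins, and Il33 at 16.7, 36.5, 64.3, 95.4 and 299 CPM. Gsto1 was at 415, 640, 831, 900 and 3127 CPM. Of the 15 genes with the largest ratio 9 increased at every step, the exceptions being Slurp1, S100a9, Krt13, Cybb, Ifit1bl1 and Arg1. Krt13 lay between 0.579 and 4.79 CPM in the first 4 bins and was at 52.6 CPM in the last. Among the lower genes Fn1 was at 519, 369, 283, 240 and 136 CPM, and 11 of the 15 with the lowest ratio decreased at every step, the exceptions being Tagln, Clstn2, Prl2c5 and Ctnnal1. The first bin contains the comparison cells and the last bin all 655 Ly6d-high cells. The genes were chosen by the ratio of those sets, so the direction between the end bins was largely fixed by the choice. The share of all examined genes that moved at every step was not computed. Median depth went from 2670 UMIs in the first bin to 3589, 3090, 3008 and 2778. Depth thus fell over the bins with a Ly6d UMI, and its part in the steps was not tested.

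**Figure D4:**
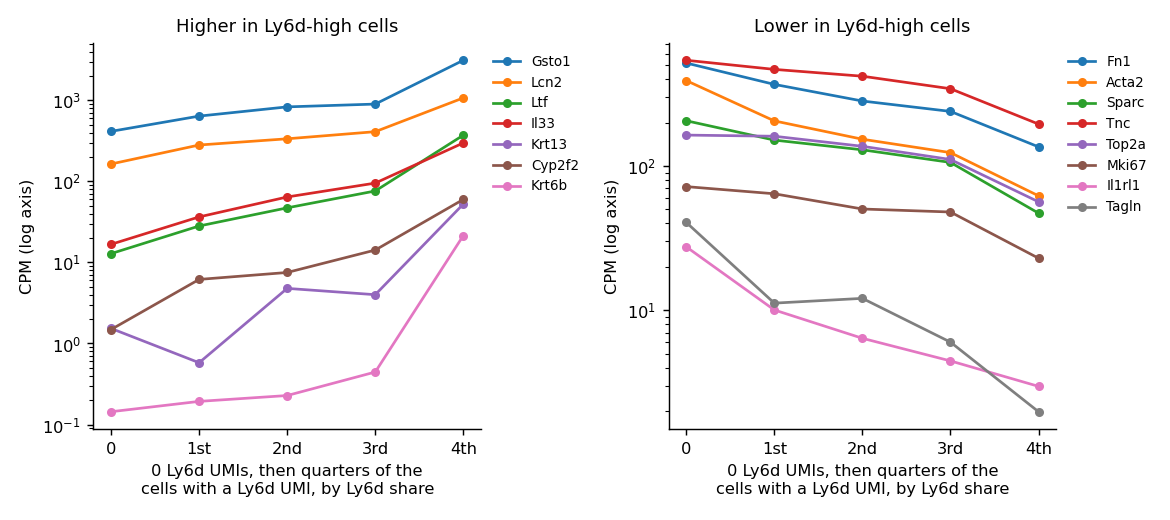
CPM (log axis) in cells with 0 Ly6d UMIs and in 4 equal groups of the cells with a Ly6d UMI, for genes that were higher (left) and lower (right) in Ly6d-high cells. Gsto1, Ltf and Il33 increased at every step, whereas Krt13 and Krt6b were low until the last bin.

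Ly6d-high cells lay close to each other when cells were arranged without Ly6d. In a graph of 30 principal components of 2000 variable genes, Ly6d excluded, 36.2% of a Ly6d-high cell's 15 nearest neighbours were Ly6d-high on average, against 1.02% for cells without Ly6d and 5% of all cells. The SD over Ly6d-high cells was 28.6 percentage points, and 89 of them (13.6%) had no Ly6d-high neighbour. Clusters of this graph, numbered by size, placed 304 Ly6d-high cells (46.4%) in cluster 4, where they were 27.6% of 1101 cells. Another 161 (24.6%) were in cluster 6, where they were 26.6% of 605 cells. Cluster 4 was led by Lcn2, Gabrp, Il33, Ltf and Aldh3a1, and cluster 6 by Krt16, Sncg, Pglyrp1, Gsto1 and Spink5. Cluster 1, the largest, held 94, cluster 2 held 55 and cluster 3, which was led by mitotic genes, held 24. Clusters 5, 7 and 11 held none.

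Ly6d-high cells of the 2 clusters differed in which genes they carried. Of the 60 Ly6d-high cells with a Krt13 UMI, 51 were in cluster 6 and 6 in cluster 4. Of the 98 with a Cyp2f2 UMI, 90 were in cluster 4 and 4 in cluster 6. Ltf was spread over both, with 158 cells in cluster 4 and 82 in cluster 6. Krt6b followed Krt13, with 20 of its 28 cells in cluster 6, and 16 of the 22 cells with Slurp1 were in cluster 4. These clusters were found from the same genes, so the values describe the cells and test nothing.

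Within a cluster, Ly6d-high cells still stood apart from their neighbours without Ly6d for some genes. In cluster 6, Krt13 was at 437 CPM (375 to 507) in 161 Ly6d-high cells against 30.1 CPM (17.2 to 48.8) in 209 cells without Ly6d. In cluster 4 the same gene was at 12.7 against 10.9 CPM, in 304 and 198 cells. Cyp2f2 was at 180 against 32.7 CPM in cluster 4. Gsto1 was at 5352 against 1437 CPM in cluster 4 and 7039 against 712 CPM in cluster 6, and it was also higher in clusters 1 and 2. Krt5, Krt14 and Cdkn1a were also higher in all 4 of these clusters. Krt14 was at 1544 against 648 CPM in cluster 4 and 4933 against 2592 CPM in cluster 6, and Cdkn1a at 282 against 120 CPM and 472 against 107 CPM. Fn1 was lower in all 4, at 90.1 against 348 CPM in cluster 4 and 32.5 against 274 CPM in cluster 6.

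For other genes the direction depended on the cluster. In cluster 4 Lcn2 was at 2254 CPM in Ly6d-high cells and 2953 CPM in cells without Ly6d, and Slpi was at 268 against 561 CPM. In the other clusters compared Lcn2 was higher in Ly6d-high cells, at 145 against 60.2 CPM in cluster 1, 530 against 64.3 CPM in cluster 2 and 1134 against 152 CPM in cluster 6. Sprr2d was at 190 against 287 CPM in cluster 4 and at 455 against 58.2 CPM in cluster 6, and it was no longer counted under either of the next settings. With comparison cells weighted to the clusters of the Ly6d-high cells, the ratio of Lcn2 became 0.957, that of Slpi 0.706 and that of Krt15 0.978. Under the same weighting 338 genes were higher, 247 of them among the 482, and 423 were lower, 297 of them among the 856. Under this weighting the differentiated squamous list had 14 genes higher, not all of them the earlier 14, and 4 lower. The list of NRF2 targets and aldehyde dehydrogenases had 8 higher. Outside clusters 4 and 6 those lists had 11 and 9 higher. Outside clusters 4 and 6, 10 of the 15 genes with the largest ratio were no longer counted, among them Krt6b, Krt13, S100a9 and Psca, while Ltf, Adam28, Il33, Aldh1a1 and Arg1 still were. That setting leaves out 304 and 161 of the 655 Ly6d-high cells, and Krt13 and Krt6b were in only 3 and 2 of the others. The lowest ratio under any setting, with 0 to 2 UMIs set to 3, was 51.6 for Krt6b and 27.7 for S100a9. It was 8.78 for Krt13 and 7.08 for Psca. Weighted to the clusters, 7 of the 15 with the lowest ratio were no longer counted, Tagln among them. Tagln stayed at least 5.29-fold lower under every setting.

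**Figure D5:**
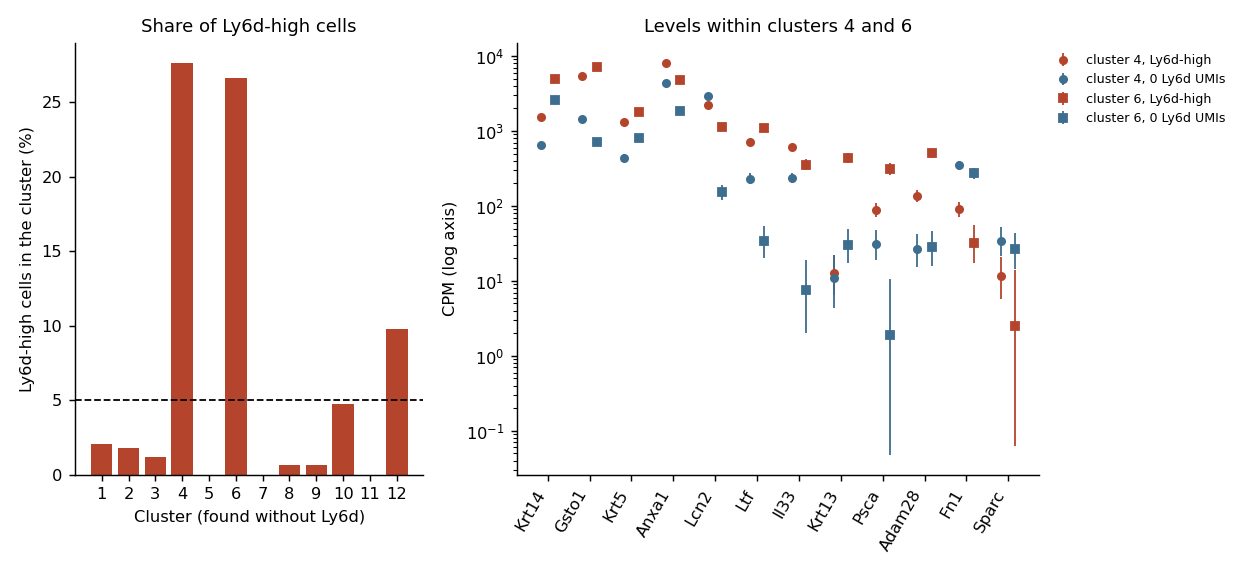
Left, percent of cells in each cluster that are Ly6d-high, with the 5% of all epithelial cells as a dashed line; clusters 4 and 6 reach 27.6% and 26.6%. Right, CPM (log axis, 95% Poisson intervals) in Ly6d-high cells and cells with 0 Ly6d UMIs within these clusters; Krt13 is higher in Ly6d-high cells of cluster 6, and Lcn2 is below the cells without Ly6d in cluster 4.

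Ly6d-high cells overlapped some other extreme sets of the same size. Of the 655 cells with the highest joint share of Ltf and Lcn2, 187 were Ly6d-high, which is 28.5% of either set against the 5% that Ly6d-high cells make up overall. Of the 655 cells richest in the chemokines Cxcl1, Cxcl2, Cxcl3, Cxcl5 and Ppbp, 95 (14.5%) were Ly6d-high. Those richest in Wfdc18 contained 7 (1.07%).

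Motif matches were counted over all genes with a promoter entry, in windows from 250 bases before to 50 after the start, on both strands. The AP-1 motif TGANTCA occurred in 11.96% of 368 promoters of higher genes, in 4.85% of 5359 promoters of examined genes, in 4.25% of 682 of lower genes and in 7.93% of all 27025 promoters. The C/EBP motif TTGCNNAA occurred in 12.5%, 7.65%, 5.57% and 10.8% of them in that order, and AACCNGTT in 3.80%, 1.87%, 1.47% and 2.01%. The antioxidant response element TGACNNNGC, whose matches can share bases with TGANTCA, was at 16.3%, 15.7%, 15.5% and 12.5%, so its share in higher genes was close to that in examined genes. The TATA box TATAAA was at 14.1%, 7.11%, 7.04% and 14.2%. For AP-1, C/EBP and TATA the examined genes lie below all promoters, and for C/EBP and TATA the share in higher genes is near that in all promoters. Of the 15 genes with the largest ratio 9 had an entry; Ly6d, Psca, Slurp1 and Krt6b are named only.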

How the data were processed

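The deposited values are UMI counts (integers, not normalized) for each gene in each barcode. Per the file headers, CellRanger 8.0.1 made them. Cell Ranger, Scanpy 1.8.2 and the mm10 build are listed in the submitters' processing notes. The labels name 3 libraries of the culture, for gene expression, barcodes and scars, and the matrix does not say which supplied its reads, so it was treated as 1 pooled sample. The lowest barcode total is 500 UMIs. Sums and CPM were computed here from the deposited counts in Python 3.11.15 (scipy 1.17.1), with exact Poisson and Clopper-Pearson binomial intervals, and counts of 0 to 2 UMIs were set to 3 when ratios were ranked. The graph and Leiden clusters (resolution 0.6) used scanpy 1.11.5. Scrublet called 1 of 14925 cells, too few for a working call, so doublets were not removed. Gene positions came from GENCODE M21. The calling was also run on simulated Poisson counts drawn from the comparison levels, which have no spread between cells or clusters. That run cannot show how the calling performs on these cells. The members, the 30 gene lists and the comparisons were chosen with earlier results of these data known. The genes named were Ly6d, its family, Trp53, Cdkn2a, Notch1, the 15 largest ratios in each direction, up to 4 per list and the 5 most abundant. Sbsn, Ecm1, Krt6a, Krt16, Spink5, Gsta4, Klf4, Cxcl5 and other list members given by name were added after their values were seen.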

Additional observations from a re-analysis of the deposited data

Results flagged for a closer look

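Both added reference sequences, which lie outside the comparison of genes, were detected in nearly all Ly6d-high cells. GFP had a UMI in 100% of the 655 cells (exact binomial interval 99.4% to 100%) and Scar in 99.8473% (99.2% to 99.996%), where a count of 0 would have allowed up to 0.458%. There is no control sample. In cells without Ly6d the shares were 99.97% and 99.9%, and the levels were 13989 against 13591 CPM for GFP and 13506 against 12599 CPM for Scar.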

How the results depend on the processing

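Every gene was recounted under 14 other settings and 3 more chosen after the data were seen (cells with at most 1 cell-cycle UMI, cells without the top 5% by Ltf and Lcn2, and cells outside clusters 4 and 6). Of 119 named genes that were counted, 49 stayed counted under every setting and 8 changed direction under at least 1. The higher count was 767 with no filter on low values, 239 at 2-fold and 307 outside clusters 4 and 6, and the lower count was 1364, 324 and 335 there and 423 with comparison cells weighted to the clusters. In that weighting the ratios of Krt15, Lcn2, Slpi, Ch25h and Cxcl5 turned to 0.978, 0.957, 0.706, 0.961 and 0.970. With at most 1 cell-cycle UMI those of Cep55 and Cxcl10 turned to 1.04 and 1.09, and outside clusters 4 and 6 that of Cldn7 to 0.984. The causes were not tested. The 3 alternative scalings shift every ratio by the same factor, which was small beside the fold a gene needed to be counted. They could therefore turn no counted gene, and they say nothing about the direction of any. The number of Ly6d-high cells was 328 for the top 2.5%, 1310 for the top 10%, 491 with 1000 genes and 2000 UMIs, and 595 without the top 10% by doublet score. The share of cells with a Ly6d UMI was 42.8% unthinned and 30.8% at 1000 UMIs. The share of Ly6d-high neighbours was 34.0% with 1000 variable genes, 34.6% with 30 neighbours and 37.5% without high doublet scores. Cell-cycle genes have no value in the setting that limits them. No paired analysis was possible because there is 1 sample. At this depth 1 UMI is worth 0.541 CPM in Ly6d-high cells, which limits genes such as Tagln and Krt6b.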
